A study of Mus musculus with 30 samples.

Results

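The genes of major histocompatibility complex (MHC) antigen presentation were followed here across sorted cells of the mouse prefrontal cortex. The group holds 10 genes of the 23993 in the expression table, chosen by symbol: 6 of the class I pathway (H2-K1, H2-D1, B2m, Tap1, Tap2 and Tapbp) and 4 of the class II pathway (Cd74, H2-Aa, H2-Ab1 and H2-Eb1). The study sorted tdTomato-positive cells from the medial prefrontal cortex of heterozygous reporter mice on a C57BL/6 background and measured their RNA by RNA-seq (the labels name polyA RNA as the molecule and also a kit that removes ribosomal RNA) as FPKM, a value scaled for transcript length and library size. It asked how male and female interneurons differ, how somatostatin (Sst) and parvalbumin (Pvalb) interneurons differ, and what chronic unpredictable stress (CUS) changes.

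All mice were young adults that carried a Cre driver under the Sst or the Pvalb gene together with the Cre-dependent Ai9 tdTomato reporter, so the reporter marks every cell in which the driver has been active. The 24 libraries came from Sst females without stress (7), Sst males without stress (7), Sst males after 14 days of CUS (3) and Pvalb males without stress (7). A further 6 libraries that the labels describe were not analysed here. The values of SST0-M hardly differed from those of SST1-M, nor PV0-M from PV2-M (the gene-wise log2 ratios of each pair had an SD of 0.0212 and 0.0170, against 0.267 and 0.225 for the next closest pair of their groups), so each pair was averaged and counted as 1 sample, which left 22 samples. Sst males came with 2 kinds of title: numbered (3 control samples) and dated (3 controls and all 3 CUS samples). Female and Pvalb titles are numbered, except that SST-F carries no number and was counted with the numbered ones. SST-F also lay farthest from the other females over genes above 5 FPKM. Its log2 ratios to each of them had an SD of 0.623 to 0.676, above that of any other pair of females. Summed FPKM was 276023 to 432075 in the numbered libraries and 681118 to 1311420 in the dated ones. In 3 libraries labelled male, PV1-M, PV4-M and PV5-M, Xist, which is transcribed from the inactive X of females, was at 333, 303 and 300.2 FPKM, whereas it was at most 6.64 FPKM in the other Pvalb libraries. Ddx3y, a gene of the Y chromosome, was at 1.87 to 2.15 FPKM in the 3 libraries, 7.97 to 17.1 FPKM in the other Pvalb libraries and at most 0.0274 FPKM in the females, so the 3 hold transcripts of both kinds. Calls of Sst against Pvalb samples are given with and without them. The labels call the cells sorted interneurons. The 10 interneuron markers, among them Gad1, Sst and Pvalb, summed to only 4.29 to 70.9 FPKM per sample, while 13 microglia markers summed to 2952.5 to 10058 FPKM. Nothing in the labels says whether libraries of a group came from separate animals, so the p-values measure the spread between these samples.

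Class I molecules present peptides from inside the cell to CD8 T cells. A heavy chain, encoded in C57BL/6 mice by H2-K1 and H2-D1, pairs with the light chain beta-2-microglobulin (B2m). The transporter TAP, formed by Tap1 and Tap2, carries peptides made by the proteasome into the endoplasmic reticulum, where tapasin (Tapbp) holds the empty class I molecule at the transporter. Class II molecules present peptides from endosomes to CD4 T cells. Each is a pair of an alpha and a beta chain, H2-Aa with H2-Ab1 in C57BL/6 mice, guided by the invariant chain Cd74, and H2-Eb1 encodes the beta chain of the other class II molecule, whose alpha chain this strain does not make. In the brain, microglia and border macrophages are the usual carriers of class I and, after activation, class II molecules, while resting neurons carry little of either.

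The members lie on chromosome 17 in the mouse MHC except B2m (chr2:122147687-122153082) and Cd74, all positions being those of RefSeq on GRCm38.p6. H2-K1 spans chr17:33996012-34000619 and H2-D1 chr17:35263094-35267497, at opposite ends of the cluster, and Tap1 (chr17:34187556-34197225), Tap2 (chr17:34204479-34216321), H2-Ab1 (chr17:34263227-34269418), H2-Aa (chr17:34282744-34287823) and H2-Eb1 (chr17:34305867-34316674) lie between them in that order. Tapbp (chr17:33919478-33929290) lies beyond H2-K1. The 200 bases upstream of the start that the RefSeq promoter table gives are shown for the class I genes with the most alike pattern over samples, H2-K1 (chr17:34000348-34000547, minus strand), H2-D1 (chr17:35262894-35263093, plus strand) and B2m (chr2:122147487-122147686, plus strand), and for the class II gene H2-Aa (chr17:34287824-34288023, minus strand), whose pattern was unlike theirs. Capitals mark letters of 3 motifs, searched on both strands: an interferon response element core (GAANNGAAA or GAAANNGAA), a kappaB-like motif (GGGNNTTCC) and a CRE-like motif (TGACNTCA).
H2-K1: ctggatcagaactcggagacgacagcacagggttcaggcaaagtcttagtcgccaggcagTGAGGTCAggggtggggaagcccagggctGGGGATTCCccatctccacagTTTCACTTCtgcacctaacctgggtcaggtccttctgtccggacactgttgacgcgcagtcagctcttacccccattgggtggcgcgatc
H2-D1: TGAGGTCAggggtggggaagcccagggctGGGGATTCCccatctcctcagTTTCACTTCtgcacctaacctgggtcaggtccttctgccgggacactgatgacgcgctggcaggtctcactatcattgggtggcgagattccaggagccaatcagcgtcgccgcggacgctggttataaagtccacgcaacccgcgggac
B2m: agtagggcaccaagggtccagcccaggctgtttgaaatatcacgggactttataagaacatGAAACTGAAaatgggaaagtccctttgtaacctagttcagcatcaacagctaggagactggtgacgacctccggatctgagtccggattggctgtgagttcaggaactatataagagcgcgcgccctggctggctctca
H2-Aa: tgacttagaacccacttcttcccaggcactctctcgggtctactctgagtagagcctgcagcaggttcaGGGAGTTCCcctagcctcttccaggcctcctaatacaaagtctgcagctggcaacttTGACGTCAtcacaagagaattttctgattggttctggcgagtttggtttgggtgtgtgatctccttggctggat
H2-K1 and H2-D1 hold all 3 motifs in the same order, and their upstream sequences are alike: without gaps, 166 of 190 aligned bases are the same (87.4%). The table's start of H2-K1 lies inside the annotated gene, and the matching letters of H2-D1 lie 60 bases further from its start. By these patterns B2m holds the interferon response element core alone, and H2-Aa holds the other 2 motifs. The kappaB-like pattern has a fixed spacing, so a similar stretch with another spacing is not marked. One such stretch is gggaaagtccc in B2m, read on the other strand, so B2m is not shown to lack a site of this kind. Over the 250 bases before the start, 12.5% of 32851 promoters hold the interferon response element core, 4.98% the kappaB-like motif and 7.49% the CRE-like motif. A match is a description of the letters only. Of the 10 members, 7 had an entry in the promoter table. Reads from the 2 heavy chain genes can be confused with those of related genes: of the windows of 75 bases in the longest H2-K1 transcript, 1.57% are also found in another gene's transcripts, and 6.46% of those of H2-D1, mostly in H2-Q2 (5.42%). These shares set no bound on the uncertainty of the heavy chain values, which also depends on how reads were assigned to H2-L, listed at 0 in the numbered libraries and above 0 in the dated ones. No such window was shared for the other 8 members.

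The light chain was by far the most abundant member. Over the 22 samples B2m had a mean of 816 FPKM, rank 42 of 14566 genes above 0.4 FPKM, followed by H2-K1 (125 FPKM, rank 354) and H2-D1 (84.1 FPKM, rank 586). Tapbp (25.4 FPKM) and Cd74 (18.0 FPKM) came next, then Tap2 (7.71 FPKM), Tap1 (7.20 FPKM), H2-Ab1 (5.27 FPKM) and H2-Aa (3.53 FPKM). By median the order differed, with Tap1 at 6.85, Cd74 at 6.47 and Tap2 at 5.23 FPKM. H2-Eb1, at 0.663 FPKM, was rank 13881. FPKM is a level per length, so these levels can be set side by side. In each group the 6 class I members together exceeded the 4 class II members: in Sst females they summed to 1096 FPKM ± 287 (SD, n = 7) against 14.0 ± 1.59. In numbered Sst males the sums were 2186 FPKM ± 1052 and 15.9 ± 7.80 (n = 3), in dated controls 611 ± 189 and 5.79 ± 2.75 (n = 3), in CUS males 500.1 ± 12.96 and 8.87 ± 1.41 (n = 3), and in Pvalb males 980.4 ± 345 and 69.0 ± 57.4 (n = 6).

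**Figure D1:**
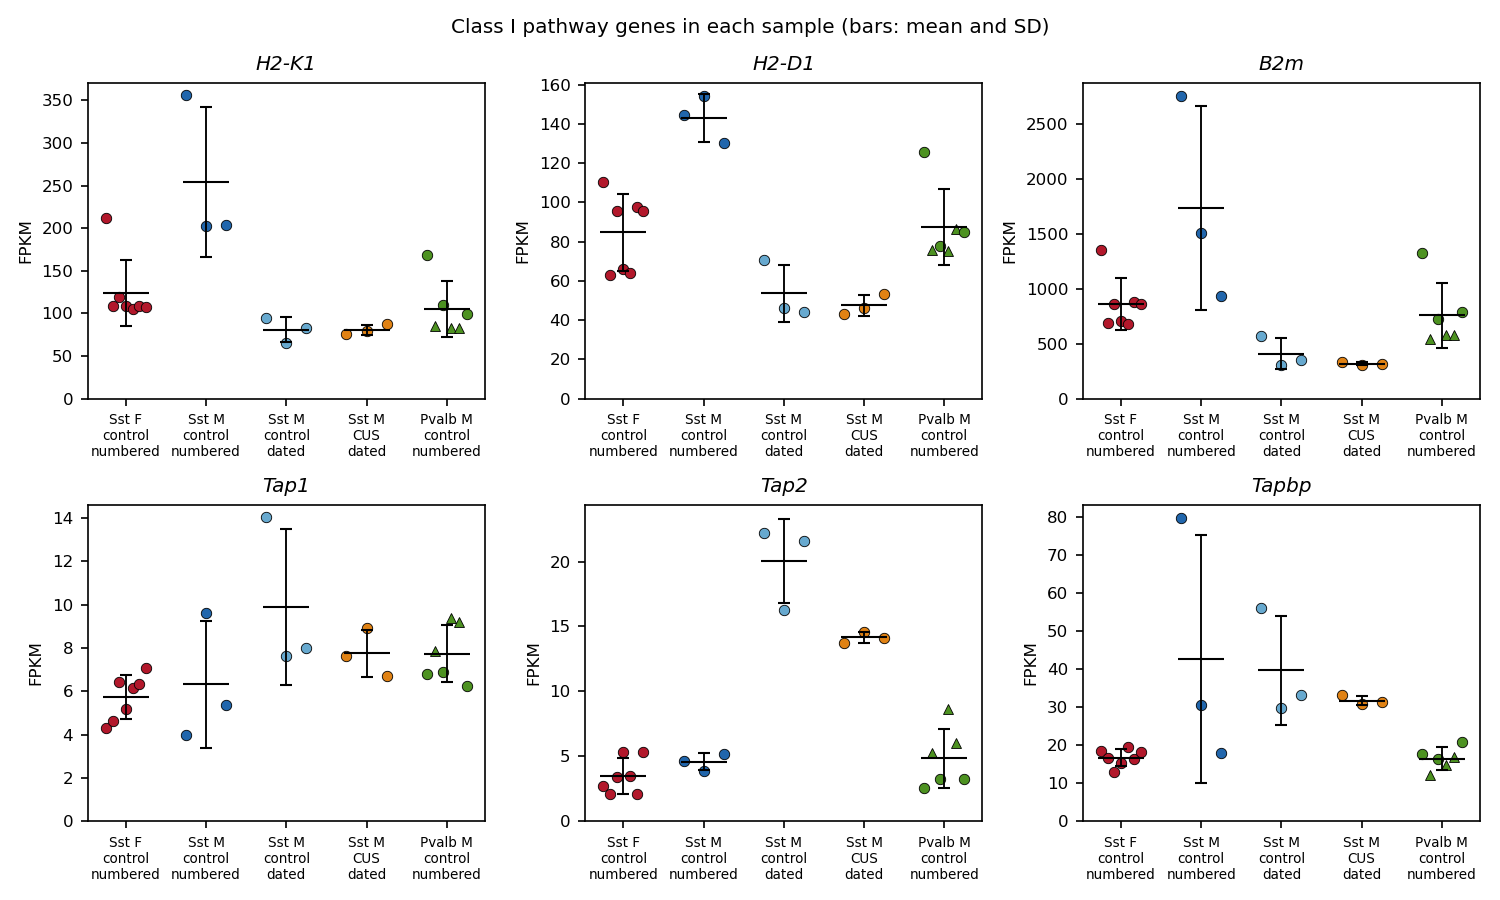
FPKM (vertical axes, from 0) of the 6 class I pathway genes in each sample of the 5 groups, with the mean and SD of each group as black bars and triangles for the Pvalb libraries with Xist above 100 FPKM. H2-K1, H2-D1 and B2m are highest in numbered Sst males and lowest in the dated samples, while Tap2 is highest in the dated samples.

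The first comparison set Sst females against Sst males without stress, within the numbered titles. The 3 most abundant class I genes had lower point estimates in females, a direction that turns with dated males as the controls. H2-K1, a class I heavy chain, was at 202, 204 and 356 FPKM in the males, with lowest, median and highest values of 105, 108.5 and 212 FPKM in the females. All females but SST-F were below every male, and SST-F alone exceeded 2 of the males. The log2 fold change (female minus male, on the log2(FPKM + 1) scale) was -1.02 (SE 0.26, 95% confidence interval -1.58 to -0.46), with an adjusted p of 0.0520 (limma). H2-D1, the other heavy chain, was at 130, 145 and 154 FPKM in males and at 62.9, 95.6 and 110.5 FPKM (lowest, median and highest) in females. Its groups did not overlap, but the adjusted p was 0.0629 at a log2 fold change of -0.78 (SE 0.21). The share of all genes without overlap between the sexes was not counted. B2m was at 934, 1512 and 2757 FPKM in males and at 679, 860.4 and 1353 FPKM (lowest, median and highest) in females, where SST-F again lay within the male range (log2 fold change -0.91, SE 0.32, adjusted p = 0.116).

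None of the 10 members passed an adjusted p of 0.05 between the sexes, where 3.41% of the 14443 genes tested did, so no member is called. At an unadjusted p below 0.05, 5 of 10 members passed (H2-K1, H2-D1, B2m, Tapbp and H2-Aa), against 24.3% of all genes. The median log2 fold change of the 10 members was -0.57, beside 0.05 over all genes tested. Without SST-F, 4 members passed, where 12.4% of all genes did: H2-K1 (-1.16, adjusted p = 0.00808), H2-D1 (-0.85, adjusted p = 0.0231), B2m (-1.02, adjusted p = 0.0456) and H2-Aa. Without SST4-M, 4 passed where 7.55% of all genes did: H2-K1 (-1.15, adjusted p = 0.0451), B2m (-1.28, adjusted p = 0.0377), Tapbp (-1.52, adjusted p = 0.0218) and H2-Aa. No member passed when any other single sample was left out. Without SST0/1-M, where 899 of 14461 genes passed, H2-K1 was at -0.75 (adjusted p = 0.0974) and H2-D1 at -0.77 (adjusted p = 0.0812). In that fit B2m was at -0.50 (adjusted p = 0.314) and Tapbp at -0.47 (adjusted p = 0.189). With scaling to a common median H2-K1 passed (adjusted p = 0.0476), where 548 of 14443 genes did. With the near-identical SST0-M and SST1-M counted as separate males, 2549 of 14367 genes passed. H2-K1 (adjusted p = 0.0125), H2-D1, B2m, Tapbp and H2-Aa were among them. That fit counts near-identical values as independent samples, so its p-values are too small.

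Of the peptide loading genes, none was called between the sexes. Tapbp, which encodes tapasin, was at 17.9, 30.7 and 79.8 FPKM in males and between 12.9 and 19.4 FPKM in females (median 16.6), a log2 fold change of -1.05 (SE 0.34, adjusted p = 0.0980). The male SST4-M lay inside the female range and SST0/1-M far above it. Tap1, one subunit of the peptide transporter, was at 3.96, 5.37 and 9.63 FPKM in males and 4.32 to 7.09 FPKM in females (log2 fold change -0.06, 95% confidence interval -0.62 to 0.50, adjusted p = 0.900). Tap2, the other subunit, was at 3.89, 4.66 and 5.20 FPKM in males and 2.06 to 5.32 FPKM in females (-0.37, 95% confidence interval -0.99 to 0.26, adjusted p = 0.434).

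Among class II genes the point estimates went both ways. H2-Aa, the alpha chain, was at 0.127, 1.23 and 2.36 FPKM in males and had lowest, median and highest values of 1.27, 5.71 and 7.93 FPKM in females. Every female but SST-F lay above every male, and the log2 fold change of 1.58 (SE 0.44, adjusted p = 0.0678) was the only positive one among the members. Without SST-F it was 1.81 with an adjusted p of 0.0117, and without SST4-M 1.94 with an adjusted p of 0.0422. Without SST0/1-M it was 1.15 with an adjusted p of 0.152. H2-Ab1, the partner beta chain, was at 0.553, 1.97 and 4.59 FPKM in males and between 0 and 2.998 FPKM in females, with no shift in its center that stood out (-0.16, SE 0.48, adjusted p = 0.856), and SST-F was listed at 0. Cd74 was at 5.04, 12.05 and 15.9 FPKM in males and 3.07 to 8.44 FPKM in females (-0.77, SE 0.37, adjusted p = 0.221), and H2-Eb1 stayed at or below 2.08 FPKM in both sexes (-0.28, SE 0.32, adjusted p = 0.611). The ratio of H2-Aa to H2-Ab1 was 1.60 to 6.49 in the 6 females with H2-Ab1 above 0, and 0.229 to 1.20 in the males.

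Within the females, the class I chains kept a narrow ratio. B2m divided by the sum of H2-K1 and H2-D1 lay between 4.005 and 4.27 in all 7 samples, although B2m itself ranged from 679 to 1353 FPKM. In the 3 numbered males the same ratio was 2.79 to 5.50. H2-D1 was at 62.9, 66.0 and 64.0 FPKM in SST1-F, SST3-F and SST4-F, whereas it reached 95.6, 97.8 and 95.7 FPKM in SST2-F, SST5-F and SST6-F. B2m took the same split (687, 706 and 679 FPKM against 860.4, 879.8 and 865.7 FPKM), whereas H2-K1 differed little among these samples (105 to 119 FPKM). The same 2 sets of females stood apart over all genes above 5 FPKM. Log2 ratios had an SD of 0.249 to 0.263 within the first set and 0.218 to 0.243 within the second. Between the sets the SD was at least 0.413. The share of all genes that divide in this way was not counted. The split is therefore not shown to be particular to H2-D1 and B2m.

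Of the other genes of antigen presentation, all that passed the test were lower in females, while those that did not pass had estimates on both sides of 0. Of 11 tested genes of nonclassical class I, 2 were called, both lower: H2-Q5 (log2 fold change -1.43, adjusted p = 0.0323) and H2-T23, which encodes Qa-1 (-0.66, adjusted p = 0.0455). Of 11 genes of peptide supply and folding, 2 were lower: Psmb8, a subunit of the immunoproteasome (-0.86, adjusted p = 0.0191), and Calr, the chaperone calreticulin (-0.83, adjusted p = 0.0371). Psmb9, another immunoproteasome subunit, had a log2 fold change of 0.67 (adjusted p = 0.422). Of 12 genes of class II processing and control, 4 were lower: H2-DMa, a chain of the class II peptide editor (-1.17, adjusted p = 0.0440), Lgmn, an endosomal protease (-1.12, adjusted p = 0.0323), Ifi30, a lysosomal thiol reductase (-1.11, adjusted p = 0.0191), and Ctss, cathepsin S, which degrades the invariant chain (-0.96, adjusted p = 0.0416). Of 12 genes of interferon control, both chains of the interferon-gamma receptor were lower, Ifngr1 (-0.88, adjusted p = 0.0479) and Ifngr2 (-0.87, adjusted p = 0.0453). Nlrc5, the transactivator of class I genes, had a log2 fold change of 0.51 (adjusted p = 0.208) and Ciita, that of class II genes, 0.09 (adjusted p = 0.851). Among 5 co-stimulation genes tested, Cd86 was lower (-1.20, adjusted p = 0.0290).

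Microglia markers moved in the same direction. The 13 markers summed to 3045 to 5390 FPKM in females and 6140 to 10058 FPKM in numbered males, and Cx3cr1, Csf1r, C1qb and Tyrobp were called lower in females. In a bulk sample, fewer cells of a type and less RNA per cell cannot be told apart. With the mean of these 13 markers as a covariate, H2-D1 had a log2 fold change of -0.10 (adjusted p = 0.857) and H2-K1 one of -0.85 (adjusted p = 0.328). With the covariate of 14 markers, H2-D1 was called (-0.68, adjusted p = 0.0387) and H2-K1 was not (-0.99, adjusted p = 0.0571), so the outcome for H2-D1 depends on the marker set. Endothelial markers moved the other way, with Cdh5, Cldn5 and Emcn called higher in females, and their part in the result was not tested. Against all male controls of both title kinds, 3 members passed (Tap2, Tapbp and H2-Aa) where 11.7% of all genes did, and H2-K1 had a log2 fold change of -0.22. Against the dated males alone, where 41.5% of all genes passed, B2m (1.09, adjusted p = 0.00507) and H2-D1 (0.65, adjusted p = 0.0376) were called higher in females, and H2-K1 had a log2 fold change of 0.58 (adjusted p = 0.0564).

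The second comparison set the 10 numbered Sst samples of both sexes against the 6 Pvalb samples. Cd74 and H2-Ab1 of the class II pathway were the 2 of 10 members called, both lower in Sst samples, where 10.2% of the 14483 genes tested were called. Cd74, the invariant chain (a gene on chromosome 18), had lowest, median and highest values of 3.07, 6.45 and 15.9 FPKM in Sst samples and 6.60, 48.4 and 90.6 FPKM in Pvalb samples. The log2 fold change (Sst minus Pvalb) was -2.004 (SE 0.53, adjusted p = 0.0239, limma). H2-Ab1 had lowest, median and highest values of 0, 2.01 and 4.59 FPKM in Sst samples and 2.82, 13.2 and 27.2 FPKM in Pvalb samples, and its log2 fold change was -2.18 (SE 0.42, adjusted p = 0.00631). H2-Aa spread widely on both sides, from 0.127 to 7.93 FPKM in Sst samples and from 0.359 to 10.85 FPKM in Pvalb samples (log2 fold change 0.09, 95% confidence interval -1.11 to 1.28, adjusted p = 0.942).

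**Figure D2:**
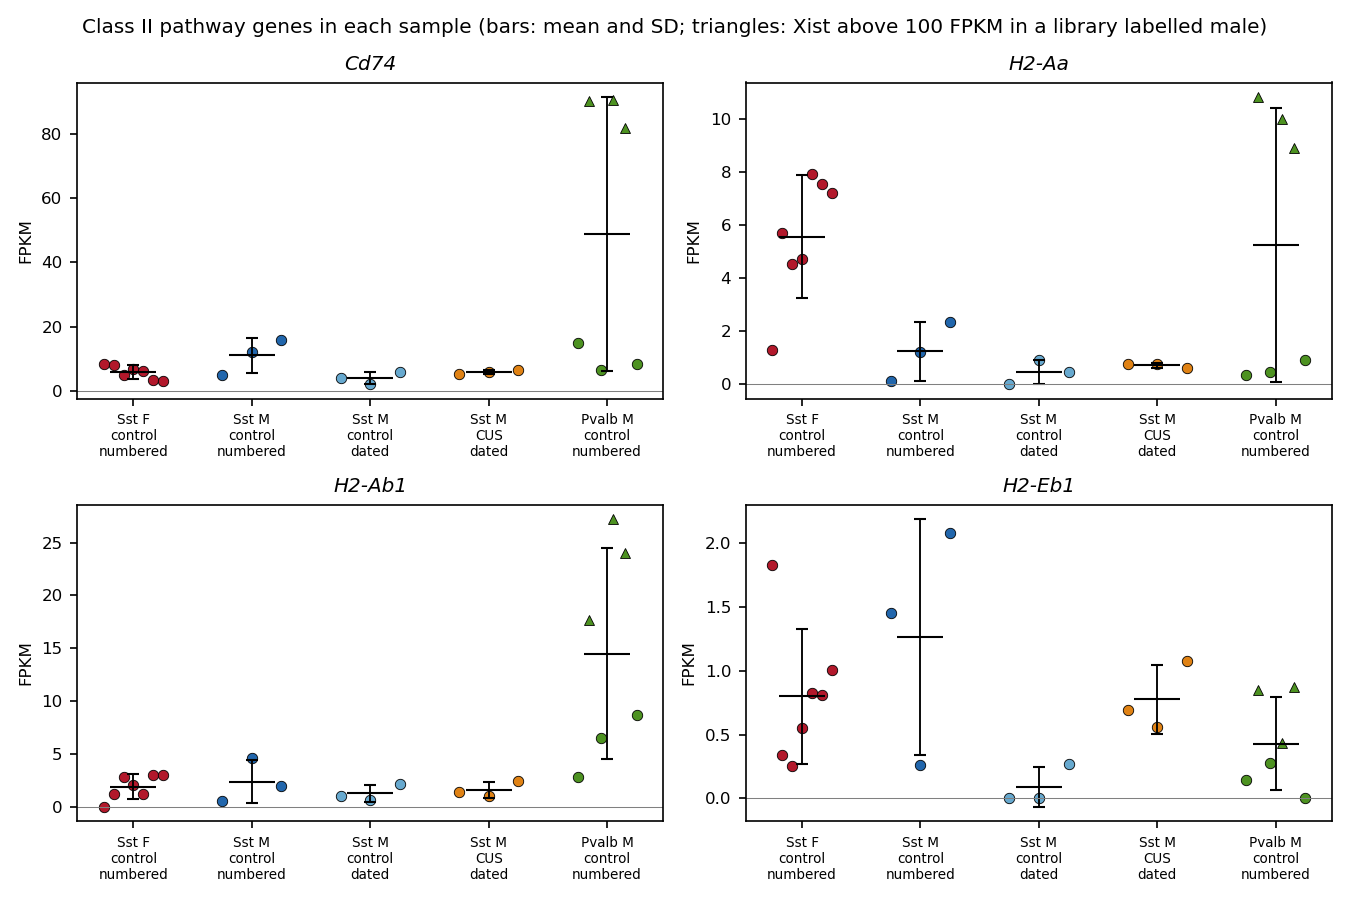
FPKM (vertical axes, from 0) of the 4 class II pathway genes in each sample of the 5 groups, with the mean and SD of each group as black bars. Triangles mark PV1-M, PV4-M and PV5-M, libraries labelled male with Xist above 100 FPKM, which hold the highest values of Cd74, H2-Aa and H2-Ab1.

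The high class II values of the Pvalb group came from 3 libraries. Cd74 was at 90.3, 90.6 and 81.9 FPKM in PV1-M, PV4-M and PV5-M, the libraries with high Xist, and at 14.9, 6.60 and 8.44 FPKM in PV0/2-M, PV3-M and PV6-M. H2-Ab1 was at 17.7, 27.2 and 24.02 FPKM in the first 3 and at 2.82, 6.49 and 8.70 FPKM in the others. H2-Aa was at 10.85, 10.01 and 8.92 FPKM against 0.359, 0.464 and 0.905 FPKM. The 2 sets of Pvalb libraries did not overlap for any of these 3 genes, and for H2-Eb1 they did not either, at 0.436 to 0.874 against 0 to 0.273 FPKM. This division was seen in the values and was not tested, and the share of all genes that divide in this way was not counted. It is therefore not shown to be particular to class II genes. Log2 ratios over genes above 5 FPKM had an SD of 0.225 between PV4-M and PV5-M and 0.258 between PV3-M and PV6-M. Between PV4-M and PV6-M the SD was 0.5645, and between PV0-M and PV3-M, both of low Xist, it was 0.733.

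Without PV1-M, PV4-M and PV5-M, Cd74 had a log2 fold change of -0.46 (adjusted p = 0.619) and H2-Ab1 one of -1.25 (adjusted p = 0.245), with 0.0622% of all genes called. Leaving out PV1-M, PV4-M or PV5-M alone took Cd74 to an adjusted p of 0.0757, 0.0787 or 0.0785, at log2 fold changes of -1.69, -1.69 and -1.71, while the genes called in all fell from 1478 to between 554 and 572. H2-Ab1 kept an adjusted p of at most 0.0249 without any 1 library. H2-Ab1 was at 6.49 and 8.70 FPKM in PV3-M and PV6-M, above every Sst sample, while PV0/2-M lay among them. Against the 7 Sst females alone both genes passed (Cd74 -2.23, adjusted p = 0.0157, and H2-Ab1 -2.23, adjusted p = 0.00349), where 25.1% of all genes did, and against the 3 numbered Sst males neither passed (Cd74 -1.47, adjusted p = 0.445, and H2-Ab1 -2.07, adjusted p = 0.256), where 0.0912% of all genes did.

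Genes that act beside class II molecules divided in both directions. Of the 13 listed genes of class II processing and control, 6 were higher in all 3 libraries of high Xist than in the other Pvalb samples (H2-DMa, H2-DMb1, H2-Oa, H2-Ob, Ciita and Rfxank), 2 were lower (Ctss and Rfx5) and 5 overlapped, and the list summed to 985 to 1063 FPKM against 1221 to 1490 FPKM. Here too, the share of all genes that divide in this way was not counted. H2-Oa, a chain of H2-O, which restrains the peptide editor H2-DM, was at 35.8, 37.6 and 41.1 FPKM in the libraries PV1-M, PV4-M and PV5-M, against 6.18 to 7.71 FPKM in the other Pvalb samples. H2-DMb1, a chain of that editor, was at 20.6, 15.4 and 16.6 FPKM against 7.42 to 13.2 FPKM. Ciita, which switches on class II genes, was at 0.974, 1.11 and 1.04 FPKM against 0 to 0.567 FPKM. Of the 12 tested genes of class II processing and control, 3 were called between the lines, all lower in Sst samples: H2-Oa (-1.39, adjusted p = 0.0493), H2-DMb1 (-1.13, adjusted p = 0.0231) and Ifi30 (-0.87, adjusted p = 0.0274). Without PV1-M, PV4-M and PV5-M none of the 3 passed: H2-Oa was at -0.23 (adjusted p = 0.823), H2-DMb1 at -0.75 (adjusted p = 0.383) and Ifi30 at -0.86 (adjusted p = 0.276). Ciita itself had a log2 fold change of -0.06 (adjusted p = 0.887), H2-DMa one of -0.70 (adjusted p = 0.111) and Ctss one of 0.16 (adjusted p = 0.715).

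**Figure D3:**
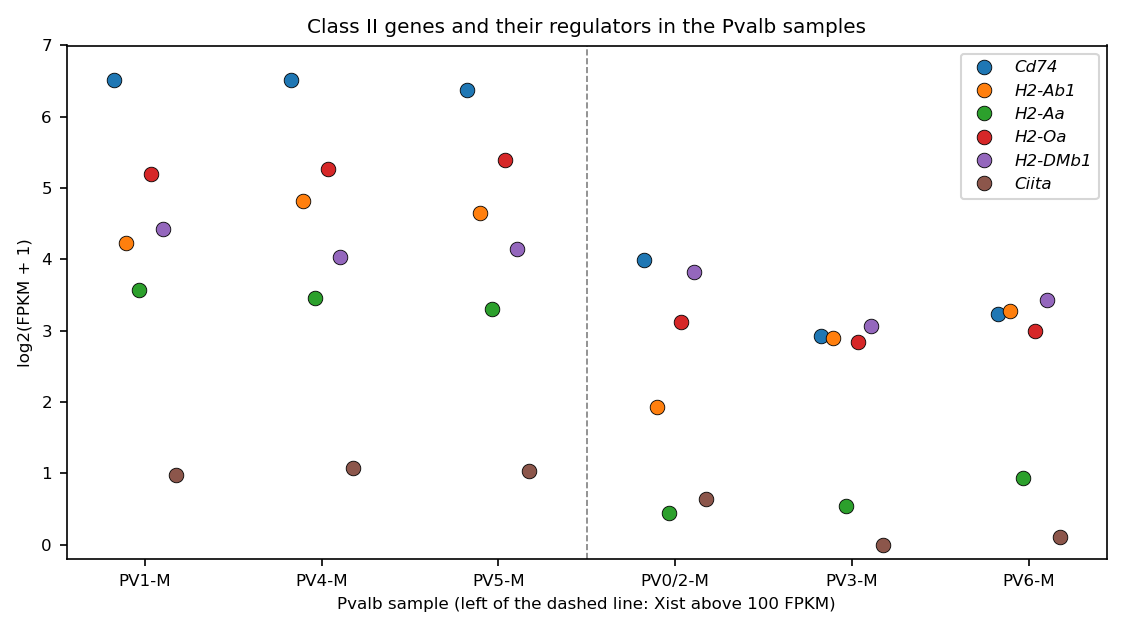
Levels of Cd74, H2-Ab1, H2-Aa, H2-Oa, H2-DMb1 and Ciita on the log2(FPKM + 1) scale (vertical axis) in each of the 6 Pvalb samples (horizontal axis), with the libraries of high Xist to the left of the dashed line. Each of the 6 genes lies higher in the 3 libraries on the left than in the 3 on the right.

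Markers of other cells that can carry class II were compared between the 2 sets of Pvalb libraries, and the sums overlapped for B cells and border macrophages but not for dendritic cells. The 8 dendritic cell markers summed to 17.8 to 22.6 FPKM in PV1-M, PV4-M and PV5-M, compared with 5.83 to 13.3 FPKM in the other Pvalb samples. Of these, Batf3 was at 11.4 to 13.2 FPKM and Cd209a at 2.496 to 5.01 FPKM in the 3 libraries, against 0.205 to 8.54 and 0 FPKM in the others, while Ccr7 and Clec10a were listed at 0 in all 3. B cell markers summed to 1.29 to 2.60 FPKM in the 3 libraries against 0.945 to 9.44 FPKM, with Ms4a1 listed at 0 in them. Border macrophage markers summed to 40.8 to 45.1 FPKM against 34.1 to 80.0 FPKM, with Lyve1, Ms4a7, Clec12a and Cd209f at 0 in the 3, and the 13 microglia markers summed to 7964 to 8537 FPKM against 5808 to 7896 FPKM. T and NK cell markers were all listed at 0 in the 3 libraries, and markers of monocytes and neutrophils summed to 5.93 to 6.38 FPKM. The part of any of these cells in the class II values was not tested.

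Class I genes did not pass between Sst and Pvalb samples. H2-K1 had lowest, median and highest values of 105, 113.9 and 356 FPKM in Sst and 82.4, 92.6 and 169 FPKM in Pvalb samples (log2 fold change 0.55, 95% confidence interval -0.00 to 1.10, adjusted p = 0.181). B2m had values of 679, 873 and 2757 FPKM against 541, 655 and 1328 FPKM (0.49, SE 0.28, adjusted p = 0.273). H2-D1 had values of 62.9, 96.7 and 154 FPKM against 75, 81.2 and 126 FPKM (0.18, SE 0.21, adjusted p = 0.621). The ranges overlapped in all 3 genes. Tapbp (0.34, adjusted p = 0.464), Tap1 (-0.36, adjusted p = 0.194), Tap2 (-0.24, adjusted p = 0.567) and H2-Eb1 (0.41, adjusted p = 0.261) were not called either. The median log2 fold change of the 10 members was 0.13, beside 0.01 over all genes tested.

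Within the Pvalb group the class I and class II pathways took different samples as their highest. PV0/2-M held the highest H2-K1 (169 FPKM), H2-D1 (126 FPKM) and B2m (1328 FPKM), and PV1-M, PV4-M and PV5-M held the 3 lowest values of H2-K1 (82.4 to 85.7 FPKM) and of B2m (541 to 581 FPKM). Tap1 and Tap2 were instead higher in PV1-M, PV4-M and PV5-M than in the others. Tap1 was at 7.85 to 9.39 against 6.23 to 6.90 FPKM, and Tap2 at 5.26 to 8.64 against 2.56 to 3.23 FPKM. Tap1 and Tap2 lie next to the class II genes on chromosome 17, and whether position plays a part was not tested. Psmb9, which encodes an immunoproteasome subunit, was at 20.4 to 25.4 FPKM in the 3 libraries and at 9.49 to 13.1 FPKM in the others. Psmb8, another such subunit, overlapped between them, at 11.9 to 16.1 against 13.2 to 17.6 FPKM. As above, the share of all genes that divide between these libraries was not counted. None of these divisions is therefore shown to be particular to the genes named.

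No gene of the other antigen presentation lists was called between Sst and Pvalb samples. This holds for 12 tested genes of nonclassical class I (smallest p for H2-K2, -0.65, adjusted p = 0.175), 11 of peptide supply and folding (Tapbpl, -0.38, adjusted p = 0.180), 12 of interferon control (Ifngr2, -0.47, adjusted p = 0.163) and 5 of co-stimulation (Cd40, listed at 0 in every Pvalb sample, adjusted p = 0.111). Psmb8 (0.17, adjusted p = 0.593), Psmb9 (0.49, adjusted p = 0.385), H2-T23 (0.03, adjusted p = 0.918) and Nlrc5 (0.23, adjusted p = 0.452) were not called. The 13 microglia markers summed to 3045 to 10058 FPKM in Sst and 5808 to 8537 FPKM in Pvalb samples, 3 of them were called lower in Sst samples (C1qc, Sall1 and Tmem119), and all 7 endothelial markers called were higher there. With the mean of the 13 markers as a covariate, Cd74 had a log2 fold change of -1.48 (adjusted p = 0.320) and H2-Ab1 one of -1.73 (adjusted p = 0.158). With the covariate of 14 markers these were -1.27 (adjusted p = 0.849) and -0.94 (adjusted p = 0.851).

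The third comparison set Sst males after CUS against unstressed Sst males within the dated titles. None of the 10 members was called, as was the case for nearly all genes, with 0.00705% of 14186 called. At an unadjusted p below 0.05, 2 of 10 members passed (Tap2 and H2-Eb1), against 6.74% of all genes. Tap2 was at 13.7, 14.1 and 14.6 FPKM after CUS and at 16.3, 21.6 and 22.2 FPKM in controls, without overlap (log2 fold change, CUS minus control, -0.46, SE 0.15, adjusted p = 0.647, limma). H2-Eb1 was at 0.557, 0.693 and 1.08 FPKM after CUS and at 0, 0 and 0.270 FPKM in controls, also without overlap (0.70, SE 0.21, adjusted p = 0.647). Its mean over the 6 samples was barely above the limit of 0.4 FPKM for a test, and the CUS samples alone carried it there. The share of all genes without overlap between these groups was not counted, so neither separation is shown to be particular to Tap2 or H2-Eb1.

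The heavy and light chains of class I were close in both groups. H2-K1 was at 75.7, 79.6 and 87.4 FPKM after CUS and at 65.5, 82.7 and 94.9 FPKM in controls (0.01, 95% confidence interval -0.41 to 0.44). H2-D1 was at 43.1, 46.1 and 53.4 against 44.0, 46.4 and 70.5 FPKM (-0.14, 95% confidence interval -0.64 to 0.36). B2m was at 306, 319 and 329 against 303, 351 and 568 FPKM (-0.30, 95% confidence interval -0.93 to 0.32). All CUS values of these genes lay within the range of the controls except the lowest of H2-D1, and the control SS04031R was the highest of all 6. Tap1 (-0.28, 95% confidence interval -0.86 to 0.31) and Tapbp (-0.26, 95% confidence interval -0.83 to 0.31) had the same highest sample, at 14.1 and 56.2 FPKM.

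Cd74 was at 5.27, 5.73 and 6.34 FPKM after CUS and at 2.12, 3.88 and 5.99 FPKM in controls, with a log2 fold change of 0.51 (SE 0.30, adjusted p = 0.649). H2-Aa was at 0.603, 0.747 and 0.775 against 0, 0.453 and 0.906 FPKM (0.28, SE 0.27, adjusted p = 0.714), and H2-Ab1 at 0.983, 1.36 and 2.47 against 0.596, 0.980 and 2.18 FPKM (0.23, SE 0.33, adjusted p = 0.807). The intervals of these 3 genes included 0. The median of the 10 members was -0.07, beside 0.00 over all genes tested. The median log2 fold changes of the other lists were 0.17 for nonclassical class I, -0.45 for co-stimulation, -0.34 for peptide supply and folding, -0.47 for class II processing and control and -0.26 for interferon control, with no gene called in any of them. The smallest p in each belonged to Psme2, a proteasome activator subunit (-0.68), Lgmn (-0.70) and Ifngr1 (-0.63), all with an adjusted p of 0.647, as had H2-Q6 of nonclassical class I (0.73) and Cd40 of co-stimulation (0.82). Psmb8 (-0.51), H2-DMa (-0.59) and Ctss (-0.64) had an adjusted p of 0.647, H2-T23 (-0.31) one of 0.661, Psmb9 (-0.27) one of 0.713 and Nlrc5 (-0.05) one of 0.931. The microglia markers summed to 2952.5 to 3394 FPKM after CUS and 3669 to 8131 FPKM in controls, and oligodendrocyte markers to 1688 to 2076 against 415 to 1375 FPKM. With the microglia markers as a covariate none of the members was called.

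The calls for CUS depended on which controls were used. Of the dated controls, SS04031R alone carries the number that stands in the titles of all 3 CUS samples, and the other 2 carry different ones. With that number as a block, an alternative added after seeing the data, the contrast rests on SS04031R as the single control, and 5 members passed where 34% of all genes did: B2m (-0.83, adjusted p = 0.000693), Tapbp (-0.81, adjusted p = 0.000985), H2-D1 (-0.56, adjusted p = 0.0119), Tap1 (-0.79, adjusted p = 0.0129) and Tap2 (-0.62, adjusted p = 0.0213). What the number stands for is not given, and with 1 control its effect and that of a single library cannot be told apart. Against the 3 numbered male controls in place of the dated ones, 4 members passed where 16.1% of all genes did: H2-K1 (-1.59, adjusted p = 0.0143), H2-D1 (-1.57, adjusted p = 0.00579), B2m (-2.30, adjusted p = 0.0146) and Tap2 (1.45, adjusted p = 0.00975). In that contrast the title kind and the stress cannot be told apart. It shares its control samples with the comparison of the sexes and with that of the title kinds.

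The last comparison set dated against numbered Sst males, all without stress, and so measured the difference between the 2 kinds of title. The members called were H2-K1, H2-D1 and Tap2, 3 of 10, where 4.11% of 14230 genes were. H2-K1 was at 65.5, 82.7 and 94.9 FPKM in dated and 202, 204 and 356 FPKM in numbered samples (log2 fold change, dated minus numbered, -1.60, SE 0.34, adjusted p = 0.0469, limma). H2-D1 was at 44.0, 46.4 and 70.5 against 130, 145 and 154 FPKM (-1.43, SE 0.29, adjusted p = 0.0426). Tap2 went the other way, at 16.3, 21.6 and 22.2 against 3.89, 4.66 and 5.20 FPKM (1.91, SE 0.28, adjusted p = 0.0180). B2m did not overlap either, at 303, 351 and 568 against 934, 1512 and 2757 FPKM, but its spread left it at an adjusted p of 0.0634 (-2.002, SE 0.48). The share of all genes without overlap between the title kinds was not counted.

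**Figure D4:**
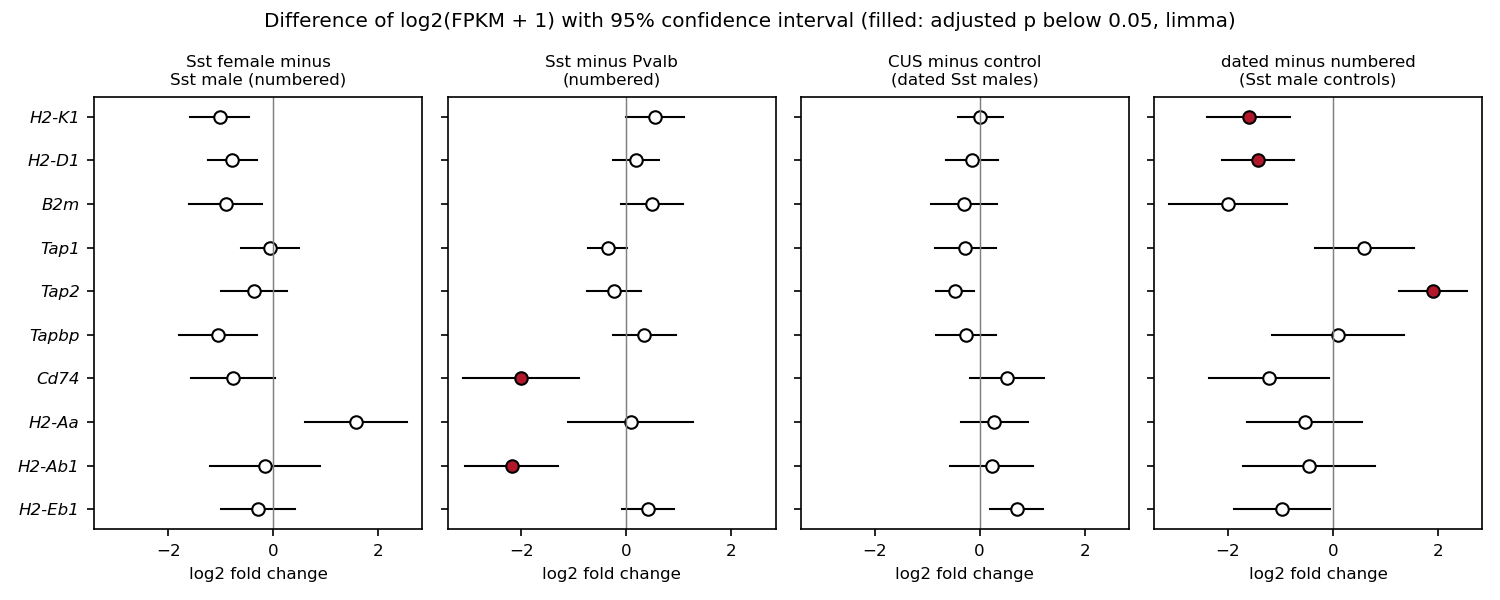
Difference of mean log2(FPKM + 1) (horizontal axes) for each of the 10 members in the 4 comparisons, with 95% confidence intervals as lines and filled points where the adjusted p was below 0.05. Cd74 and H2-Ab1 are filled for Sst against Pvalb, H2-K1, H2-D1 and Tap2 for dated against numbered titles, and none for the sexes or for CUS.

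The calls for H2-K1 and H2-D1 were close to the threshold and were lost when SS04031R, SST040241L, SST04241LL, SST3-M or SST4-M was left out (adjusted p from 0.0832 to 0.205 for H2-K1 and from 0.0504 to 0.211 for H2-D1), as was that of Tap2 (0.0568 to 0.119). The log2 fold changes stayed between -1.33 and -1.74 for H2-K1, between -1.31 and -1.64 for H2-D1 and between 1.82 and 2.04 for Tap2. The ratio of Tap2 to Tap1 was 1.58 to 2.70 in the dated controls and 1.64 to 2.10 in the CUS samples, against 0.326 to 1.18 in the numbered Sst samples and 0.376 to 0.920 in Pvalb samples. Tap1 itself had a log2 fold change of 0.60 (SE 0.40, adjusted p = 0.396) and Tapbp one of 0.10 (SE 0.54, adjusted p = 0.926). The class II members were all lower by point estimate and none was called: Cd74 (-1.21, adjusted p = 0.191), H2-Eb1 (-0.97, adjusted p = 0.190), H2-Aa (-0.54, adjusted p = 0.519) and H2-Ab1 (-0.45, adjusted p = 0.640). The median of the members was -0.75, beside -0.00 over all genes tested.

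Related class I genes split by title kind as well. H2-L was listed at 0 in all numbered libraries and was at 23.3, 24.02 and 32.1 FPKM in the dated controls and 29.1, 38.1 and 42.7 FPKM after CUS. The sum of H2-D1 and H2-L was 69.7, 76.1 and 94.5 FPKM in dated controls, still below the 130 to 154 FPKM of the numbered males. H2-T22 was higher in dated samples (2.28, adjusted p = 0.0277) and H2-Q5 lower (-1.76, adjusted p = 0.0257), which with H2-L made 3 calls among 13 nonclassical and class I-like genes. Of 11 genes of peptide supply and folding, Calr was higher (1.88, adjusted p = 0.0259) and Psme2 lower (-1.72, adjusted p = 0.0211). None was called among the genes of class II processing and control (smallest p for Rfxap, 1.55, adjusted p = 0.0602), interferon control (Irf9, 0.73, adjusted p = 0.204) or co-stimulation (Cd86, -0.71, adjusted p = 0.304). Psmb8 (-0.26, adjusted p = 0.648), Psmb9 (-1.53, adjusted p = 0.268), H2-T23 (-0.21, adjusted p = 0.706), H2-DMa (-1.29, adjusted p = 0.127), Ctss (0.89, adjusted p = 0.275) and Nlrc5 (0.43, adjusted p = 0.431) were not called. Among microglia markers, Tyrobp alone was called (-3.74, adjusted p = 0.0114).

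Set in order over the 5 groups, the members took different patterns. H2-K1, H2-D1 and B2m were highest in numbered Sst males (254 ± 88.6, 143 ± 12.1 and 1735 ± 932 FPKM, SD) and lowest after CUS (80.9 ± 5.93, 47.5 ± 5.28 and 318 ± 11.2 FPKM), which lay within the SD of the dated controls (81.0 ± 14.75, 53.6 ± 14.65 and 407 ± 141 FPKM). Sst females and Pvalb males were neighbours in between, within each other's spread (H2-K1 at 124 ± 39.0 and 105 ± 33.3 FPKM). Tap1 and Tap2 were highest in dated controls (9.90 ± 3.62 and 20.04 ± 3.26 FPKM) and lowest in Sst females (5.73 ± 1.03 and 3.48 ± 1.37 FPKM). Tapbp was higher in the 3 groups of Sst males (42.8 ± 32.7, 39.7 ± 14.4 and 31.7 ± 1.21 FPKM) than in Sst females (16.7 ± 2.16 FPKM) and Pvalb males (16.5 ± 2.96 FPKM), though the numbered males overlapped both. Cd74 and H2-Ab1 were highest in Pvalb males (48.8 ± 42.7 and 14.5 ± 9.96 FPKM), and H2-Aa was at 5.56 ± 2.32 FPKM in Sst females and 5.25 ± 5.16 FPKM in Pvalb males, within each other's spread. H2-Eb1 was at most 1.26 ± 0.926 FPKM, in numbered Sst males.

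Patterns were compared over the 16 numbered samples on the log2(FPKM + 1) scale, as a description, among 13200 genes with a mean above 1 FPKM. B2m was among the 3 genes most like H2-K1 (Pearson's r of 0.94), after Arrdc3 (0.95) and Zfp719 (0.95). Zfp719 was also among the 3 most like B2m (0.96), with Imp4 (0.97) and Dnajc8 (0.96). H2-D1 was less tightly tied to both (0.81 with H2-K1 and 0.83 with B2m), and the genes most like it were Zbtb18 (0.89), Ggta1 (0.89) and Slco4a1 (0.88). Tapbp had a correlation of 0.83 with B2m, and Ccnk (0.94), Lactb (0.92) and Snap29 (0.92) were nearest to it. Tap1 was closer to H2-Ab1 (0.83) than to B2m (-0.44), with Rab35 (0.92), Os9 (0.89) and Inpp5k (0.88) nearest, and Tap2 had only Ccdc85c, Mppe1 and Atrip at 0.77. The genes most like Cd74 were Slc36a2 (0.95), Gpbar1 (0.94) and Zfp36l3 (0.93), those most like H2-Ab1 were Ppp1r14b, Lrch4 and Tmem234 (all 0.94), and those most like H2-Aa were Abhd14b (0.95), Smarcd3 (0.94) and Dopey2 (0.94). Cd74 and H2-Ab1 had a correlation of 0.76, and H2-Aa one of -0.75 with B2m. The samples share groups of sex and line, and the Sst females and the Pvalb samples each fall into sets of like libraries. Each correlation holds those differences. Within the 7 Sst females several were far from these values, at 0.37 for Lactb and -0.48 for Snap29 with Tapbp and at -0.20 for Zfp36l3 with Cd74.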

How the data were processed

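The authors deposited 1 table of FPKM for 23993 gene symbols in 24 libraries. Per the labels the reads were processed with TopHat2, Cufflinks and Cuffdiff on mm10, while the Methods name HISAT2 with StringTie on mm10 after a sentence with TopHat2 on mm9. The Methods also name ComBat for batch effects, and whether it was applied to these values is not stated. With no counts the depth is unknown, no counting interval can be given, and a gene listed at 0 may reflect a failed estimate.

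Near-identical libraries were averaged, meaning pairs for which the spread (SD) of log2 ratios among genes over 5 FPKM stayed below 10% of the spread of any other pair in the group. Values were taken as log2(FPKM + 1), which understates changes of low genes. In each comparison, genes averaging more than 0.4 FPKM entered the test, among them all 10 members. The test was limma 3.58.1 (R 4.3.3), a linear fit moderated with the trend and robust options, and two-sided p-values were adjusted by Benjamini-Hochberg across every tested gene and called below 0.05. The procedure was tested on simulated data. Python 3.11.15 (pandas 2.3.3, numpy 2.4.6) was used for the other steps and matplotlib 3.10.9 for plots.

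The members and the lists of related genes and markers were chosen with earlier results of these data known. Genes named beside the members are up to 3 per list with the largest change among those called, or the gene with the smallest p, plus Nlrc5, Ciita, Psmb8, Psmb9, H2-T23, H2-DMa and Ctss. H2-L, the sums and ratios, Batf3 and Cd209a were singled out after their values were seen. Promoter sequences are from RefSeq on GRCm38.p6 and shared windows from GENCODE M1 transcripts, used without coordinates. The alternatives were the pseudocount (0.1 and 5), no filter, scaling to a common median, quantile normalization, microglia markers as a covariate (14 or 13 of them), other control groups, near-identical libraries counted separately, each sample left out and a replicate block, or, for CUS, the number in the dated titles. Values of some marker genes are not reported here.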

Additional observations from a re-analysis of the deposited data

Results flagged for a closer look

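In 5 cases, 1 sample of a group of 6 or 7 lay farther from the rest than Dixon's test allows, out of 30 groups tested, a test that chance alone passes in about 1 of 20 groups. SST-F had the highest H2-K1 of the Sst females (212.09 FPKM, the other 6 at 105 to 119 FPKM) and the highest B2m (1352.8 FPKM, the others at 679 to 880 FPKM). PV0/2-M had the highest H2-K1 of the Pvalb males (169.02 FPKM, the other 5 at 82.4 to 110.2 FPKM), the highest H2-D1 (125.73 FPKM, the others at 75 to 86.5 FPKM) and the highest B2m (1327.9 FPKM, the others at 541 to 793 FPKM). PV0/2-M is the mean of a near-identical pair of libraries. The cause of these values was not tested.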

How the results depend on the processing

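Over 827 values of single members under an alternative, 686 kept their direction and side of the threshold, 73 changed sign, 34 gained a call and 34 lost one. The cause of these changes was not tested, and with FPKM alone the depth behind low values such as those of H2-Eb1 is unknown.

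Between the sexes (493 genes and 0 members called) the common median gave 548 genes, 222 higher and 326 lower against 253 and 240, and 1 member. The microglia covariate of 14 markers gave 1 member and that of 13 markers 48 genes, all male controls 1699 genes and 3 members, dated controls 6032 and 7, and near-identical libraries counted separately 2549 and 5. Leaving out 1 sample gave 100 to 1787 genes and 0 to 4 members. The replicate block gave 11 genes and the same samples without it 24. The replicate numbers do not pair samples (correlations of deviations from -0.039 to 0.058 in both comparisons that share numbers). No paired analysis was possible for CUS or for the title kinds because their titles hold no replicate numbers that match between the groups. A number shared by 1 control and all CUS samples was used as a block for CUS. For Sst against Pvalb (1478 genes and 2 members) quantile normalization gave 4 members, the microglia covariate of 14 markers 1 gene and 0 members, that of 13 markers 34 and 0, males alone 13 and 0, females alone 3638 genes, without the Pvalb libraries of high Xist 9 and 0, the replicate block 3983 genes and the same samples without it 4572. Leaving out 1 sample gave 554 to 2883 genes and 1 to 2 members. For CUS (1 gene and 0 members) either microglia covariate gave 7 genes, numbered controls 2309 genes and 4 members, controls of both sexes 6 genes and the title number as a block 4829 genes and 5 members, with 1 to 16 genes and 0 members when 1 sample was left out. For the title kinds (585 genes and 3 members) no filter gave 381 genes and 1 member, quantile normalization 1106 genes, either microglia covariate 381 genes and 1 member, the common median 1 member and separate libraries 1769 genes, with 54 to 1962 genes and 0 to 4 members when 1 sample was left out.

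The sign changed between the sexes with all male controls for B2m (0.094), H2-Ab1 (0.066) and H2-Eb1 (0.20), with dated controls for H2-K1 (0.58), H2-D1 (0.65), B2m (1.09), Cd74 (0.45), H2-Ab1 (0.29) and H2-Eb1 (0.69), with the microglia covariate for Tap1 (0.015 with 14 markers and 0.52 with 13, as for H2-Ab1 with 0.41) and with separate libraries for Tap1 (0.061) and H2-Ab1 (0.072). For Sst against Pvalb it changed with all Sst controls for H2-D1 (-0.028), Tap2 (0.26) and H2-Aa (-0.29), with females alone for H2-D1 (-0.059), with males alone for Tap2 (0.021) and H2-Aa (-1.02), with the microglia covariate of 14 markers for Tap1 (0.15) and of 13 markers for H2-Aa (-0.49), with a pseudocount of 5 for H2-Aa (-0.045), in the samples of the replicate block, with and without it, for H2-D1 (-0.13), and without the Pvalb libraries of high Xist for Tap2 (0.22). For CUS it changed with controls of both sexes for H2-K1 (-0.67), Tap1 (0.22), Tap2 (1.20), Tapbp (0.39), Cd74 (-0.0081), H2-Aa (-0.98) and H2-Ab1 (-0.032), with all male controls for H2-K1 (-0.79), Tap1 (0.025), Tap2 (0.49) and Cd74 (-0.094), with the common median (-0.041) and the title number as a block (-0.23) for H2-K1, with either microglia covariate for H2-D1 (0.18), B2m (0.14), Tap1 (0.12), Tapbp (0.19) and H2-Aa (-0.13), and with numbered controls for H2-K1 (-1.59), Tap1 (0.33), Tap2 (1.45), Cd74 (-0.70), H2-Aa (-0.25), H2-Ab1 (-0.22) and H2-Eb1 (-0.26). For the title kinds it changed with separate libraries for Tapbp (-0.18). Leaving out 1 sample took Tap1 from -0.30 to 0.25 and H2-Ab1 from -0.62 to 0.30 between the sexes, H2-Aa from -0.24 to 0.39 between the lines, H2-K1 from -0.13 to 0.13, H2-D1 from -0.27 to 0.067 and Tapbp from -0.43 to 0.016 for CUS, and Tapbp from -0.37 to 0.68 and H2-Ab1 from -0.92 to 0.0082 for the title kinds. The title number block, the covariate of 13 markers and the fit of the replicate block's samples without the block were added after seeing the data.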
